A study of Mus musculus with 10 samples.

Results

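Immunoglobulin G (IgG) acts on leukocytes through the Fcγ receptors, and the 6 genes described here encode the mouse Fc receptors for IgG and their shared signalling chain: *Fcgr1*, *Fcgr2b*, *Fcgr3*, *Fcgr4*, *Fcer1g* and *Fcgrt*. They were chosen by symbol, and each had a single row among the 55401 gene rows of the count files. FcγRI (*Fcgr1*), FcγRIII (*Fcgr3*) and FcγRIV (*Fcgr4*) are activating receptors that signal through the ITAM-bearing γ chain encoded by *Fcer1g*. FcγRIIB (*Fcgr2b*) carries an inhibitory motif and recruits the phosphatase SHIP1, and the balance of both kinds sets the threshold at which IgG complexes activate a macrophage. *Fcgrt* encodes the heavy chain of FcRn, an MHC class I-like receptor that binds IgG in acidic endosomes and returns it to the circulation.

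The values come from bulk RNA sequencing of 10 B16F10 tumors, a mouse melanoma line, taken on day 15 from female C57BL/6J mice aged 9 to 12 weeks. Of these, 5 grew from cells in which *Mir25* had been knocked out (*Mir25* KO) and 5 from cells with a non-targeting control guide (NTC), with 50000 cells injected under the skin per mouse by the labels, whereas the study's methods give a higher number. All 10 mice received Comb, namely GVAX (1000000 irradiated B16 cells secreting GM-CSF, on days 1 and 4) and αPD-1 (10 mg/kg on days 6, 9 and 12). The deletion was in the injected cells, so the leukocytes that infiltrated the tumors came from hosts of the same strain in both groups. The labels do not say whether the KO cells were a clone or a pool. No tumor had a read on *Mir25* itself, so these counts give no check of the deletion. The summed level of 8 melanoma markers was 11685 to 22262 CPM, so each sample held tumor cells as labelled. Between 23243707 and 28682130 reads were counted on genes in 9 tumors and 11896643 in NTC replicate 1, which also had the highest share of reads outside genes (42.9%) and stood apart from the other NTC tumors in the macrophage, monocyte, neutrophil and melanoma marker sums. Its TMM factor was 0.63, against 0.97 to 1.11 in the other 9 tumors, and 33193 genes had a count in it, against 22192 to 25435. The low factor raises its CPM, so its rank among the tumors by CPM depends on that factor. The fold changes of the members and of the genes named with them are therefore given with and without that tumor.

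*Fcgr2b*, *Fcgr4*, *Fcgr3* and *Fcer1g* lie within 275749 bases of chromosome 1 (GRCm38), at chr1:170958617-170976547, chr1:171018920-171029761, chr1:171051174-171064935 and chr1:171229572-171234365. *Fcgr1* lies at chr3:96282909-96293969 and *Fcgrt* at chr7:45092990-45103851, and all but *Fcgr4* are on the minus strand. The coding sequences of *Fcgr2b* and *Fcgr3* were identical at 86.7% of 782 aligned bases. The other 5 pairs among the 4 receptors with IgG-binding chains were identical at 64.1% to 67.3%. The stretch below, from exon 3 of both genes in GENCODE M21, is shown because it decides how well short reads separate the activating receptor *Fcgr3* from the inhibitory *Fcgr2b*. Capitals mark the 9 of 222 bases that differ.
Fcgr2b, chr1:170967980-170968201, minus strand: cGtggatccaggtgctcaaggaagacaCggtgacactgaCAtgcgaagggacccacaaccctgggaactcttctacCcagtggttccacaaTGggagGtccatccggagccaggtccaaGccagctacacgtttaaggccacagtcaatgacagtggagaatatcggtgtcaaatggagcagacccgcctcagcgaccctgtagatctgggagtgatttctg
Fcgr3, chr1:171057691-171057912, minus strand: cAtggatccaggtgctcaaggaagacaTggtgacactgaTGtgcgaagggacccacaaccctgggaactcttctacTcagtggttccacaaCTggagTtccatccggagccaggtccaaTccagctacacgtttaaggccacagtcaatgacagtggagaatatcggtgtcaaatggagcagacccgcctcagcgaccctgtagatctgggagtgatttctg
All 9 differences lie in the first part of the stretch, and the longest run of coding sequence shared by the genes was 129 bases. Of the 75-base words in *Fcgr3* transcripts, 5.42% also occurred in *Fcgr2b*, and a read of that length from these words cannot be assigned to either gene. Of the 75-base words in *Fcgr2b* transcripts, 5.43% also occurred in another gene on either strand, most often in *Cplx2* (2.13%). *Fcgr1*, *Fcgr4*, *Fcer1g* and *Fcgrt* shared no 75-base word with any other annotated gene. Genes annotated on the opposite strand over *Fcgr2b* (*Gm38204*) and over *Fcgrt* (*Gm45669*) had 0 to 2 reads per tumor. The strand setting of the counting is not given in the sources used here, so reads from either strand in those overlaps cannot be told apart.

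Upstream sequence is shown for 2 activating receptors in which letters of known myeloid or interferon motifs were found, from RefSeq on GRCm38.p6. The 250 bases before the annotated start of each member were searched on both strands for TTCNNNGAA (GAS, an interferon-γ activated site), GAGGAAG (a PU.1 motif) and the core of an ISRE (GAAA, any 2 bases, GAAA). Capitals mark the matches.
Fcgr1, chr3:96293970-96294219, minus strand: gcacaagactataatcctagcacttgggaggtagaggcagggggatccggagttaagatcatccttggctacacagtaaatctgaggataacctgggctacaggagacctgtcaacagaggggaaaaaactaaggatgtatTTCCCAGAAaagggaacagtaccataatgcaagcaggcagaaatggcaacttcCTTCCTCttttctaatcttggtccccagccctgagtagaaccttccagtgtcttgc
Fcgr4, chr1:171018676-171018925, plus strand: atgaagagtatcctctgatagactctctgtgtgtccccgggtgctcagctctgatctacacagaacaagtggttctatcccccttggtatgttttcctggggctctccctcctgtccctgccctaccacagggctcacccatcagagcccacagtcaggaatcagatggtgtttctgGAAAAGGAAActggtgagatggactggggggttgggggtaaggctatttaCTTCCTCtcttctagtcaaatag
In *Fcgr1* the capitals are 1 GAS match followed by 1 PU.1 match, and in *Fcgr4* they are 1 ISRE core followed by 1 PU.1 match. *Fcgr3* also had a PU.1 match, whereas *Fcgr2b*, *Fcer1g* and *Fcgrt* had none of the motifs in this window. Among 32851 RefSeq promoters of the same length, 7.02% held the GAS letters, 10.6% the PU.1 letters and 2.98% the ISRE core. These matches describe sequence and do not show binding. The microRNA deleted in the tumor cells is shown with its seed (bases 2 to 8) in capitals.
mmu-miR-25-3p, chr5:138165332-138165353, minus strand: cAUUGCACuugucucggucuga
The complement of the seed occurred in none of the longest annotated 3′ UTRs of the 6 members, and in 6.56% of 21022 genes with an annotated 3′ UTR.

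Reads on all 6 genes were found in every tumor, from 224 reads (*Fcgr1* in NTC replicate 4) to 8627 reads (*Fcgr3* in KO replicate 5). Every member passed the filter on low counts. The levels of each gene differed 6.42-fold (*Fcgrt*) to 18.8-fold (*Fcgr1*) between the lowest and the highest tumor, so the spread within groups was wide. In *Mir25* KO tumors the group mean of every member was higher than in NTC tumors, but no difference was larger than the spread between tumors. CPM is counts per 1000000 reads of the TMM-normalized library, and values below are in replicate order. In bulk tumor RNA, fewer cells of a type and less RNA per cell cannot be told apart.

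*Fcgr1*, the high-affinity activating receptor, was at 73.4, 117, 32.3, 31.0 and 172 CPM in KO tumors 1 to 5. In NTC tumors 1 to 5 it was at 135, 18.3, 46.5, 9.11 and 47.8 CPM. KO tumors 5 and 2 and NTC tumor 1 were the highest, NTC tumor 4 was the lowest, and the groups overlapped. The means were 85.1 ± 59.9 CPM in KO and 51.4 ± 49.9 CPM in NTC (SD, n = 5 each), a log2 fold change of 0.74 (standard error 0.70, adjusted p = 0.779, quasi-likelihood test of edgeR, Benjamini-Hochberg adjusted over 15821 genes).

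*Fcgr3*, the activating receptor found on macrophages, neutrophils and NK cells, was at 176, 290, 64.5, 69.9 and 384 CPM in KO tumors. In NTC tumors it was at 309, 28.5, 73.4, 28.4 and 84.4 CPM. The same 3 tumors were highest as for *Fcgr1*, and NTC tumors 2 and 4 were lowest. The means were 197 ± 139 and 105 ± 117 CPM, and the log2 fold change of 0.92 (standard error 0.73, adjusted p = 0.743 by edgeR) was the largest among the members.

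*Fcgr4*, an activating receptor of mouse monocytes and macrophages that binds IgG2a and IgG2b, was at 100.4, 274, 64.3, 47.4 and 260 CPM in KO tumors. In NTC tumors it was at 178, 34.1, 88.8, 25.6 and 117 CPM. NTC tumors 3 and 5 lay above KO tumors 3 and 4. The means were 149 ± 109 and 88.8 ± 62.8 CPM, with a log2 fold change of 0.75 (standard error 0.63, adjusted p = 0.755 by edgeR).

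*Fcer1g*, the chain through which these 3 receptors signal, was at 87.9, 188, 44.1, 45.5 and 201 CPM in KO tumors. In NTC tumors it was at 225, 24.3, 60.9, 18.9 and 76.6 CPM. The highest tumor of all by TMM-scaled CPM was NTC tumor 1, and the other 4 NTC tumors lay between 18.9 and 76.6 CPM. The means were 113 ± 76.2 and 81.1 ± 83.9 CPM, with a log2 fold change of 0.49 (standard error 0.69, adjusted p = 0.861 by edgeR).

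*Fcgr2b*, the inhibitory receptor of macrophages and B cells, was at 146, 106, 49.7, 51.3 and 201 CPM in KO tumors. In NTC tumors it was at 219, 25.6, 51.2, 41.2 and 57.2 CPM. NTC tumor 1 was again the highest, and KO tumors 3 and 4 lay among the other NTC tumors. The means were 111 ± 64.4 and 78.8 ± 79.2 CPM, with a log2 fold change of 0.50 (standard error 0.60, adjusted p = 0.834 by edgeR).

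*Fcgrt*, the FcRn heavy chain, was at 44.9, 93.7, 49.9, 28.8 and 85.0 CPM in KO tumors. In NTC tumors it was at 99.5, 16.7, 38.1, 15.5 and 39.2 CPM. Its range over tumors was the narrowest among the members, and the groups overlapped. The means were 60.4 ± 27.7 and 41.8 ± 34.2 CPM, with a log2 fold change of 0.54 (standard error 0.52, adjusted p = 0.779 by edgeR).

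**Figure D1:**
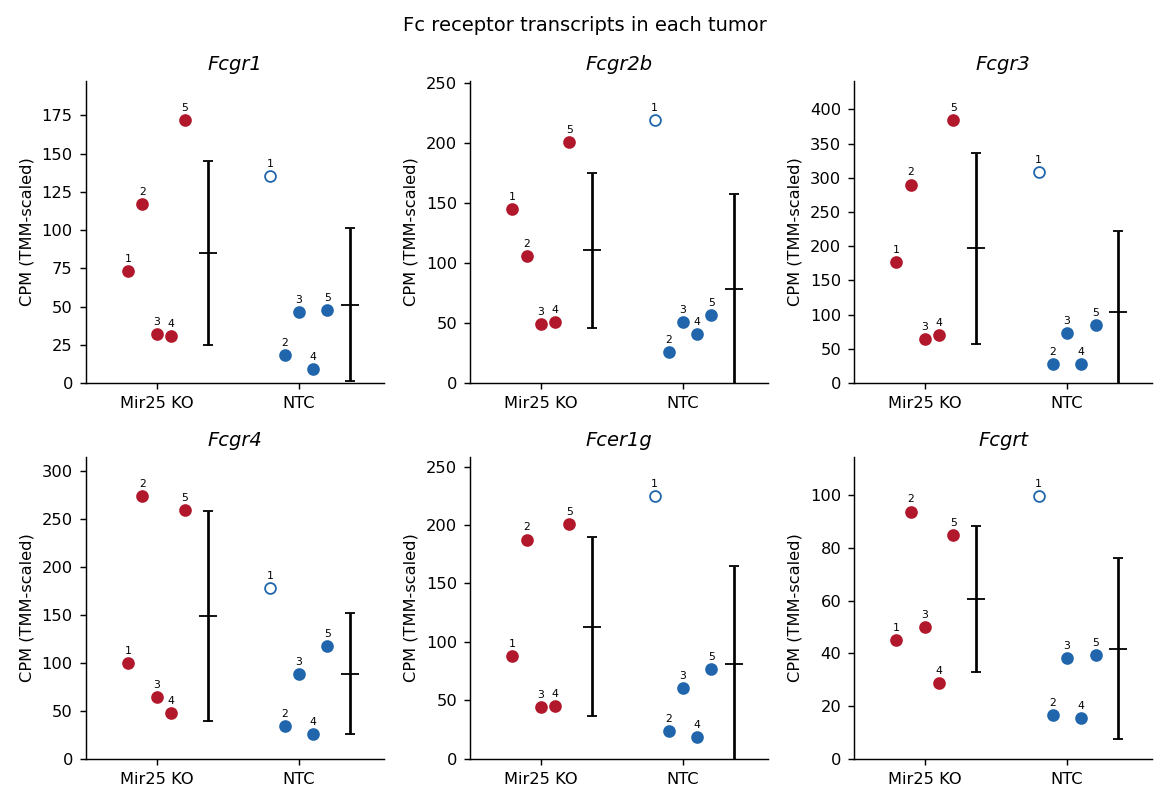
Each panel plots the TMM-scaled CPM of 1 gene in each tumor, with KO in red, NTC in blue, NTC replicate 1 as an open circle and replicate numbers above the points. Bars are the mean ± SD (n = 5), with the lower end drawn only to 0. KO replicates 2 and 5 and NTC replicate 1 are the 3 highest tumors in 5 of 6 panels, and NTC replicates 2 and 4 are the lowest in all 6.

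None of the 6 members was called over 10 tumors (absolute log2 fold change above 1 and adjusted p under 0.05), where 0.0190% of 15821 genes were called. At an unadjusted p under 0.05 and higher in KO there were 0 of 6 members, against 3.99% of all genes. By DESeq2 over the same tumors and genes, 0 of 6 were called as well, where it called 96 of 15821 genes. All 6 fitted fold changes were above 0, against 51.3% of all genes, and the median was 0.64 for the members, against 0.0076 for all genes. With a pan-leukocyte score as a covariate, 4 of 6 turned below 0 (*Fcgr1* -0.14, *Fcgr2b* -0.13, *Fcgr4* -0.25 and *Fcer1g* -0.31, adjusted p = 0.749, 0.866, 0.595 and 0.245 by edgeR), with *Fcgr3* at 0.05 and *Fcgrt* at 0.03. In no member did every KO tumor lie above every NTC tumor, which was the case for 0.866% of genes.

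Without NTC replicate 1, the NTC means were 30.4 ± 19.7 CPM for *Fcgr1*, 43.8 ± 13.8 CPM for *Fcgr2b*, 53.7 ± 29.5 CPM for *Fcgr3*, 66.5 ± 44.0 CPM for *Fcgr4*, 45.1 ± 28.1 CPM for *Fcer1g* and 27.4 ± 13.05 CPM for *Fcgrt* (SD, n = 4). The log2 fold changes became 1.44 (standard error 0.62, adjusted p = 0.234 by edgeR) for *Fcgr1* and 1.83 (standard error 0.59, adjusted p = 0.178) for *Fcgr3*. For *Fcgr2b* the value was 1.30 (standard error 0.42, adjusted p = 0.180). *Fcgr4*, *Fcer1g* and *Fcgrt* were at 1.12, 1.28 and 1.10 (adjusted p = 0.331, 0.247 and 0.196). Leaving out this 1 library thus moved each fold change by 0.37 (*Fcgr4*) to 0.91 (*Fcgr3*) on the log2 scale without taking any member past the threshold of edgeR's test.

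At an unadjusted p under 0.05 and higher in KO there were 5 of 6 members over these 9 tumors, against 12.0% of 16078 genes. The exception was *Fcgr4* (unadjusted p = 0.0992 by edgeR). The members are not independent of each other, since they moved together from tumor to tumor. All 6 were again above 0, against 48.1% of genes. The groups still overlapped in every member, while 2.71% of genes had every KO tumor above every NTC tumor. The edgeR test called 0 of 6 members where it called 0.106% of all genes. With DESeq2 on the unfiltered table, 2 of 6 were called, *Fcgr3* (log2 fold change 1.87, standard error 0.54, adjusted p = 0.0182) and *Fcgr2b* (1.33, standard error 0.42, adjusted p = 0.0338), where it called 3.32% of 18601 genes higher. On the genes past edgeR's filter, DESeq2 called the same 2 members (adjusted p = 0.0158 and 0.0292), where it called 526 of 16078 genes higher. The call for an activating and for the inhibitory receptor therefore rested both on the tool and on leaving out NTC replicate 1.

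**Figure D2:**
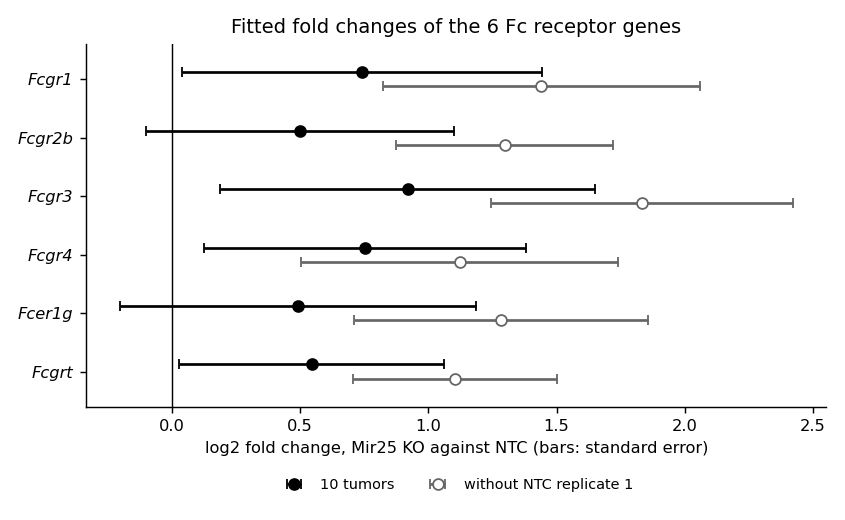
The fitted log2 fold change of each gene (KO against NTC, edgeR) is plotted with its standard error, over 10 tumors as filled circles and without NTC replicate 1 as open circles. Values run from 0.49 to 0.92 over 10 tumors and from 1.10 to 1.83 without that tumor.

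The activating receptors were then compared with the inhibitory receptor within each tumor, as the ratio of reads, which does not depend on library scaling. KO tumors 1 to 5 had 1.21, 2.74, 1.30, 1.36 and 1.91 *Fcgr3* reads per *Fcgr2b* read. NTC tumors 1 to 5 had 1.41, 1.11, 1.44, 0.689 and 1.48. KO tumors 2 and 5 lay above every NTC tumor, and the other 3 lay among them. The mean log2 ratio was 0.70 ± 0.49 in KO and 0.24 ± 0.46 in NTC, a difference of 0.46 (standard error 0.30, two-sided exact permutation test, p = 0.198, adjusted p = 0.595 over the 3 ratios). The difference was 0.52 without NTC replicate 1 (exact permutation test, p = 0.198), and by group medians it turned to -0.05. The smallest p that 5 against 5 tumors allow is 0.00794.

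The log2 ratio of *Fcgr1* to *Fcgr2b* was -0.48 ± 0.44 in KO and -0.75 ± 0.83 in NTC tumors. Its difference of 0.27 (standard error 0.42, exact permutation test, p = 0.651, adjusted p = 0.913) came with 1 NTC tumor, replicate 4, far below the rest at -2.18, and was -0.09 without it, 0.28 without NTC replicate 1 and -0.13 by group medians. The log2 ratio of *Fcgr4* to *Fcgr2b* was 0.29 ± 0.71 and 0.25 ± 0.73, a difference of 0.04 (standard error 0.46, exact permutation test, p = 0.913, adjusted p = 0.913). That difference was -0.10 without NTC replicate 1, -0.19 without NTC replicate 4, -0.23 without KO replicate 2 and -0.04 by group medians. No shift of the balance in either direction was detected for any of the 3 pairs. The smallest shift that these tumors could show was not computed. Per kilobase of exon, the 3 activating receptors together were at a log2 ratio of 3.67 ± 0.57 to *Fcgr2b* in KO and 3.45 ± 0.60 in NTC tumors. With the length of the shortest principal transcript of each gene in place of all exons, the same log2 ratio was 1.96 ± 0.56 in KO and 1.72 ± 0.59 in NTC tumors, so its level depended on the transcript of *Fcgr2b* far more than on the group. KO replicate 2 had the highest ratio for each of the 3 receptors.

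**Figure D3:**
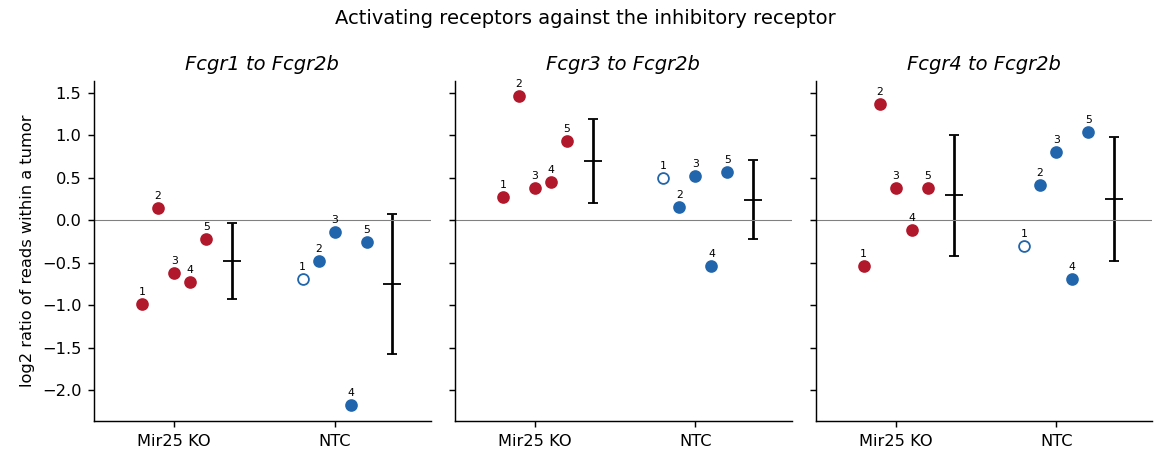
Each panel plots the log2 ratio of reads on 1 activating receptor to reads on *Fcgr2b* in each tumor, with KO in red, NTC in blue, NTC replicate 1 as an open circle and bars as mean ± SD (n = 5). The groups overlap in all 3 panels, with NTC replicate 4 lowest in each and KO replicate 2 highest.

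Levels of different genes were compared per kilobase of annotated exon. *Fcer1g*, *Fcgr4* and *Fcgr3* were the 3 highest members in every tumor, at 129 ± 87.2, 119 ± 86.9 and 113 ± 80.3 CPM per kilobase in KO tumors and 92.7 ± 96.0, 70.7 ± 49.96 and 60.3 ± 67.3 in NTC tumors. These 3 changed places from tumor to tumor: *Fcer1g* was first in 5 tumors, *Fcgr4* in 4 and *Fcgr3* in 1. *Fcgr1* (32.9 ± 23.1 in KO), *Fcgrt* (28.8 ± 13.2) and *Fcgr2b* (19.1 ± 11.1) followed, and their ranges overlapped. *Fcgr2b* was last in 8 of 10 tumors on this scale. Its place depended on the transcript: the exons of its 7 annotated transcripts cover 5790 bases, whereas its shortest principal transcript has 1578. With the length of the shortest principal transcript of each gene, *Fcgr2b* took place 4 in 8 of 10 tumors (70.1 ± 40.8 CPM per kilobase in KO) and *Fcgr1* was last in 8. On that scale *Fcgr2b* reached place 2 at best, and *Fcgr4* fell to place 4 in 2 tumors. The 3 highest members were thus the same in every tumor only per kilobase of exon. The order of *Fcgr1* and *Fcgr2b* by level could therefore not be settled from gene counts. In single tumors the same held for *Fcgr2b* against *Fcgr3* and *Fcgr4*.

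Across the 10 tumors, the log2 levels of the members were alike, with Pearson's r from 0.82 (*Fcgr2b* and *Fcgr4*) to 0.98 (*Fcgr1* and *Fcer1g*) over 15 pairs and a median of 0.95. These coefficients describe 10 tumors of 2 groups that also share depth and leukocyte content, and they carry no test. Among 15821 genes, those most like *Fcgr3* were *Lyz2*, the lysozyme gene of myeloid cells (r = 0.998, Spearman's rho = 0.98), *Cd53* (r = 0.997, rho = 1.0) and *Tlr8* (r = 0.996, rho = 0.95). *Fcgr1* was most like *Ms4a6c*, *Rab7b* and *Slfn2* (r = 0.993 each) and *Fcgr4* most like *Slco3a1* (r = 0.994), *Vav1* (r = 0.991) and *Hcls1* (r = 0.990). *Fcer1g* was most like *Pira2* (r = 0.996), which encodes a receptor that itself pairs with the γ chain, *Lcp2* (r = 0.994) and *Prdm1* (r = 0.994). The inhibitory *Fcgr2b* was most like *Diaph2* (r = 0.994), *Lilrb4a* (r = 0.992), an inhibitory receptor of myeloid cells, and *Ecm1* (r = 0.990). *Fcgrt* was most like *Clec4a2* (r = 0.989), *Gmfg* (r = 0.987) and *Vsir* (r = 0.983). Each member also followed *Csf1r*, the receptor for the macrophage growth factor CSF1 (r from 0.90 for *Fcgr2b* to 0.98 for *Fcgr3*). This was not particular to a macrophage gene. With *Ptprc*, the CD45 gene of leukocytes, r was 0.91 for *Fcgr2b* to 0.98 for *Fcgr3*. With *Pecam1*, 1 of 6 endothelial markers, it was 0.90 for *Fcgr2b* to 0.96 for *Fcgrt*. *Pecam1* does not stand for that list, in which 3 of 6 markers had a fitted fold change above 0. The median of the 6 was 0.07 on the log2 scale, and 0.58 without NTC replicate 1.

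The summed level of 10 macrophage markers ran from 1480 to 7833 CPM in KO tumors and from 455 to 6547 CPM in NTC tumors. The highest NTC value was that of replicate 1, and the other 4 reached at most 1978 CPM. *Lyz2* had the highest mean of the 10 markers, 1764 CPM in KO and 901 CPM in NTC tumors, and so weighed most in this sum. All 10 markers had a fitted fold change above 0 (median 0.97 on the log2 scale over 10 tumors and 1.68 without NTC replicate 1), and none was called. Pan-leukocyte markers behaved alike, with 10 of 10 above 0 and medians of 0.85 and 1.504. Melanoma markers had medians of -0.12 and -0.28. NK cell markers summed to at most 20.8 CPM and B cell markers to at most 8.76 CPM in any tumor, while macrophage markers summed to at least 455 CPM. Dendritic cell markers summed to 15.9 to 42.1 CPM in KO and to 9.43 to 25.4 CPM in NTC tumors. These sums run over different genes and list lengths, so they do not compare cell numbers between types. Neutrophil markers, of a cell type that also carries *Fcgr3* and *Fcgr4*, summed to 11.1 to 80.3 CPM in KO tumors and to 5.02 to 148 CPM in NTC tumors, where replicate 1 had 148 CPM and the other 4 at most 15.4 CPM. Of 7 such markers, 5 were tested and 2 were above 0, with a median of -0.17. Without NTC replicate 1, 5 of 5 were above 0, with a median of 2.68 on the log2 scale, 4 had an unadjusted p under 0.05 and 0 were called by edgeR. Monocyte markers summed to 150 to 498 CPM in KO and to 53.1 to 932 CPM in NTC tumors, with medians of 0.37 and, without NTC replicate 1, 0.82. The part of neutrophil, monocyte and dendritic cell number in the members' differences was not tested. That of macrophage number was not tested either. The within-tumor ratios that follow cannot separate it from the RNA per cell of a receptor or of the reference gene.

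**Figure D4:**
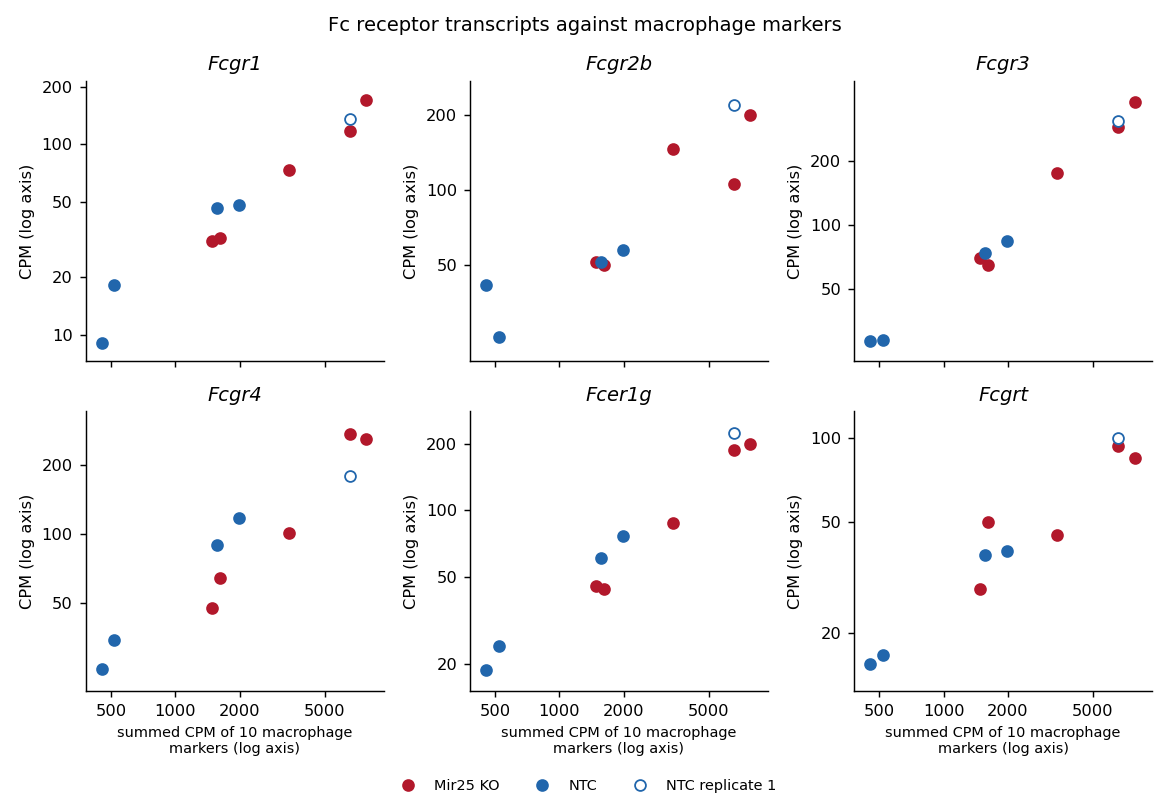
Each panel plots the CPM of 1 gene against the summed CPM of 10 macrophage markers in the same tumor, both on log axes, with KO in red, NTC in blue and NTC replicate 1 as an open circle. The tumors of both groups lie along 1 rising band, from 2 NTC tumors with macrophage sums of 455 and 519 CPM to KO replicate 5 at 7833 CPM.

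With *Csf1r* of the same tumor as the reference, the direction turned. *Csf1r* was at 248 ± 151 CPM in KO and 123 ± 131 CPM in NTC tumors (log2 fold change 1.01, standard error 0.70, adjusted p = 0.712 by edgeR). The value was 1.84 with NTC replicate 1 left out (adjusted p = 0.175 by edgeR, standard error 0.57). Over 10 tumors, 97.4% of the other genes had fewer reads per *Csf1r* read in KO than in NTC tumors, with a median log2 difference of -1.36. KO tumors 1 to 5 had 41.2, 47.8, 38.3, 45.7 and 47.7 *Fcer1g* reads per 100 *Csf1r* reads. NTC tumors 1 to 5 had 64.7, 80.1, 66.7, 65.2 and 64.1. Every KO tumor was thus below every NTC tumor, NTC replicate 1 included, which was the case for 1.23% of genes. The log2 difference was -0.63 (standard error 0.09, two-sided exact permutation test, p = 0.00794, the smallest possible, adjusted p = 0.0952 over the 12 comparisons of 6 members with *Csf1r* and *Ptprc*), and -0.64 without NTC replicate 1. It was smaller in size than that of the median gene, so *Fcer1g* stood out by its narrow spread and not by its size.

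The other members overlapped between groups per *Csf1r* read. *Fcgr4* was at 47.1 to 69.7 reads per 100 *Csf1r* reads in KO tumors and at 51.2 to 113 in NTC tumors (log2 difference -0.64, standard error 0.23, exact permutation test, p = 0.0317, adjusted p = 0.159). Without NTC replicate 1 its lowest NTC value was 88.3, above every KO tumor, as for 13.7% of genes. *Fcgr2b*, *Fcgrt*, *Fcgr1* and *Fcgr3* differed by -0.68, -0.64, -0.41 and -0.22 (adjusted p = 0.159, 0.159, 0.159 and 0.262, exact permutation tests). *Fcgr3*, at 55.9 to 91.2 reads per 100 *Csf1r* reads in KO and 70.6 to 98.2 in NTC tumors, was the member that differed least.

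Per read of *Ptprc*, which encodes CD45 of all leukocytes, the differences were smaller, and 94.1% of the other genes were below 0, with a median of -1.02. *Fcer1g* was at 27.7 to 40.5 reads per 100 *Ptprc* reads in KO and 33.4 to 46.4 in NTC tumors (log2 difference -0.29, standard error 0.14, exact permutation test, p = 0.0714, adjusted p = 0.159). *Fcgr2b*, *Fcgr4*, *Fcgrt* and *Fcgr1* differed by -0.34, -0.30, -0.30 and -0.07, whereas *Fcgr3* was at 0.12, and at 0.22 without NTC replicate 1. No member was without overlap, as was the case for 0.329% of genes with KO below NTC. Against each of the 9 other macrophage markers, *Fcer1g* had a log2 difference of -0.23 (*Cd68*) to -0.75 (*Lyz2*), with an unadjusted exact permutation p under 0.05 for 5 of 9. *Fcgr1*, *Fcgr2b*, *Fcgr4* and *Fcgrt* were also lower in KO than each of the 10 markers by group means, and *Fcgr3* was lower than 6 of them, or 4 without NTC replicate 1. Since 93.3% to 98.0% of all genes tested were lower than any one of these markers, the direction alone says nothing particular to the members. The reference comparisons were tested after the values had been seen.

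**Figure D5:**
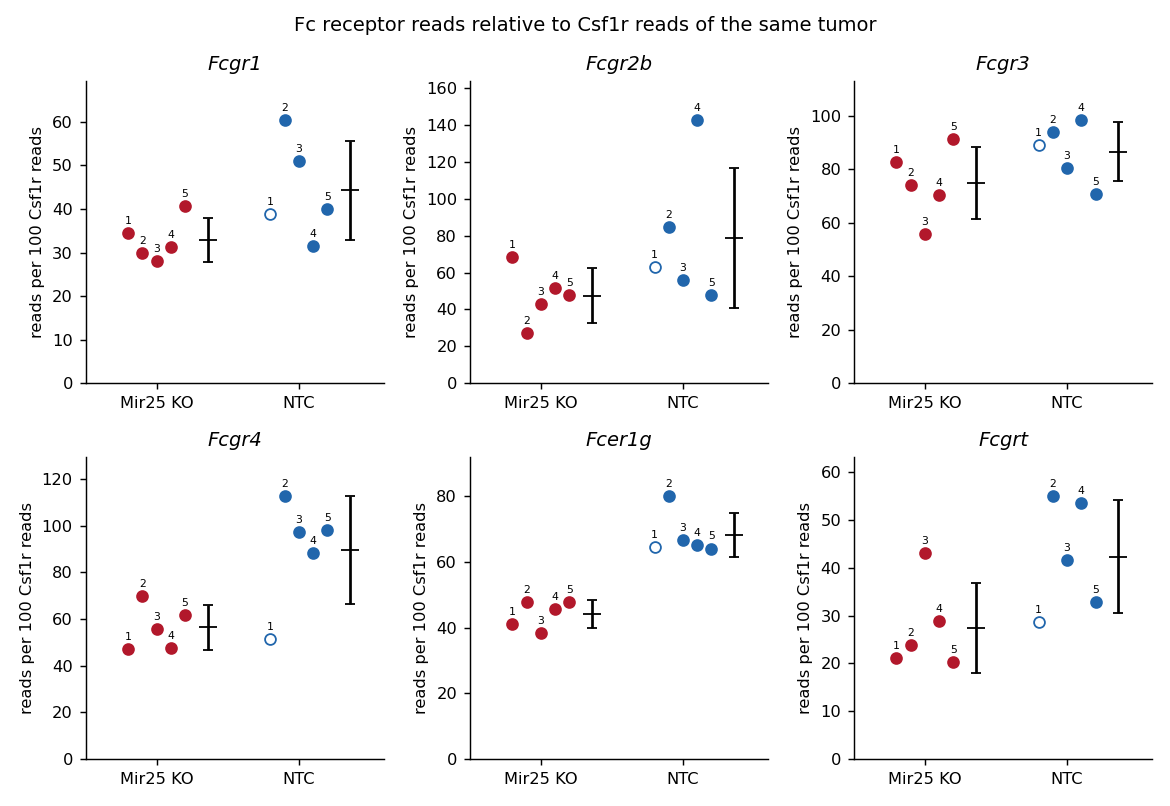
Each panel plots reads on 1 gene per 100 *Csf1r* reads of the same tumor, with KO in red, NTC in blue, NTC replicate 1 as an open circle and bars as mean ± SD (n = 5). For *Fcer1g* the 5 KO tumors lie between 38.3 and 47.8 and the 5 NTC tumors between 64.1 and 80.1, while the groups overlap for the other 5 genes.

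Genes that act with these receptors were counted by role. Of the ligands, the IgG heavy chain genes *Ighg1*, *Ighg2b*, *Ighg2c* and *Ighg3*, only 2 passed the filter on low counts and none was called. *Ighg2c*, the IgG2c chain of C57BL/6 mice, was at 0.25 to 19.0 CPM in KO tumors. Its KO median was 0.36 CPM. It was at 0 to 1.21 CPM in NTC tumors and did not pass the filter. Without NTC replicate 1 its NTC mean was 0.057 ± 0.040 CPM, and every KO tumor lay above every NTC tumor. That was the case for 2.71% of the 16078 genes tested there, which did not include *Ighg2c*. At levels this low the separation rests on few reads. *Ighg2b* had a log2 fold change of 1.88 (standard error 1.13, adjusted p = 0.657 by edgeR) and *Ighg1* of 0.73 (standard error 1.29, adjusted p = 0.886). These values were 2.30 and 2.50 without NTC replicate 1 (adjusted p = 0.293 and 0.257 by edgeR). Ligand transcripts were thus low, at most 32.1 CPM summed over the 4 genes, and KO replicate 2 alone reached that value, with the other 9 tumors between 0.13 and 9.16 CPM.

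Among 13 other Fc receptor genes, 4 passed the filter, 0 were called and 1 was above 0, with a median of -0.20 on the log2 scale. Without NTC replicate 1 the direction turned, with 5 tested, 4 above 0, 0 called and a median of 0.60. *Trim21*, a cytosolic IgG receptor found in many cell types, was at 53.7 ± 7.93 CPM in KO and 57.6 ± 10.3 CPM in NTC tumors (log2 fold change -0.10, standard error 0.15, adjusted p = 0.861 by edgeR). Its spread between tumors was far narrower than that of the 6 members. *Fcrls* (4.78 ± 0.33 and 6.44 ± 7.93 CPM) and *Fcrl5* (2.41 ± 2.58 and 3.06 ± 2.94 CPM) were low in both groups, and their log2 fold changes went from -0.39 to 0.60 and from -0.30 to 0.17 when NTC replicate 1 was left out. *Trim21* was at -0.16 without it.

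Of 13 genes of activating signalling below the receptors, from the kinases *Lyn*, *Fgr* and *Syk* to *Rac2*, all 13 had a fitted fold change above 0 and 0 were called. Above 0 were 51.3% of all genes. Their median was 0.82 on the log2 scale, and 1.47 without NTC replicate 1. Pan-leukocyte markers had like medians, 0.85 and 1.504, with 10 of 10 above 0, so the direction was not particular to this pathway. *Tyrobp*, the ITAM adaptor DAP12 that serves other myeloid receptors, was at 185 ± 138 CPM in KO and 84.3 ± 86.0 CPM in NTC tumors (log2 fold change 1.14, standard error 0.74, adjusted p = 0.687 by edgeR). *Lyn* and *Syk*, which phosphorylate and then bind the ITAM, had log2 fold changes of 0.68 (adjusted p = 0.773) and 0.87 (adjusted p = 0.748 by edgeR). *Tyrobp*, *Lyn* and *Syk* were at 1.91, 1.24 and 1.68 without NTC replicate 1 (adjusted p = 0.186, 0.249 and 0.190 by edgeR).

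Of 5 genes of inhibitory signalling, all 5 were above 0, against 51.3% of all genes, and 0 were called. Their medians were 0.62 and, without NTC replicate 1, 1.27. *Inpp5d*, which encodes SHIP1, was at 79.0 ± 49.5 and 43.8 ± 36.1 CPM (log2 fold change 0.86, standard error 0.60, adjusted p = 0.714 by edgeR). *Ptpn6*, which encodes the phosphatase SHP-1, had a log2 fold change of 0.62 (standard error 0.41, adjusted p = 0.704 by edgeR). *Dok1*, an adaptor below FcγRIIB, was at 45.3 ± 7.001 and 33.9 ± 6.01 CPM (log2 fold change 0.42, standard error 0.15, adjusted p = 0.434 by edgeR). The values for *Inpp5d*, *Ptpn6* and *Dok1* without NTC replicate 1 were 1.40, 0.76 and 0.34 (adjusted p = 0.205, 0.331 and 0.260 by edgeR). The difference between the 2 arms of signalling was not tested.

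IFN-γ is known to raise *Fcgr1* in macrophages, and 11 genes of the IFN-γ response were counted for that reason. Of these, 9 were above 0, against 51.3% of all genes, and 0 were called, with a median of 0.16 on the log2 scale. Without NTC replicate 1, 7 were above 0 and 0 were called, with a median of 0.28. *Gbp2* had a log2 fold change of 0.12 (standard error 0.26, adjusted p = 0.912 by edgeR), *Irf1* of -0.04 (standard error 0.16, adjusted p = 0.954) and *Tap1* of 0.08 (standard error 0.18, adjusted p = 0.915). Without NTC replicate 1 these values were 0.17, -0.09 and -0.02. The list was not uniform: *Nos2* was at 0.83 and *Cd274* at 0.51, and without NTC replicate 1 at 1.58 and 0.97 (adjusted p = 0.167 and 0.197 by edgeR). In the other direction, *Cxcl10* was at -0.39, and at -0.41 without NTC replicate 1 (adjusted p = 0.344 by edgeR). These genes were picked out after their values were seen.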

How the data were processed

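Tumor RNA of 5 *Mir25* KO and 5 NTC tumors was sequenced, 1 library per tumor. Per the labels and the submitters' processing notes, reads were checked with FastQC, trimmed with Trimmomatic, aligned to mm10 with HISAT2 and counted with HTSeq. The deposited values are whole-number counts per gene, without normalization, and their 5 summary rows were left out. The strand setting and the annotation used in counting are not given in the sources used here. HTSeq leaves out reads that align to several places, which can lower counts where genes share sequence. Depth was 11896643 to 28682130 reads on genes per tumor. Reads carry no molecular identifiers, so precision was taken from the spread between tumors. Each tumor is labelled as a separate sample, and p-values measure the spread between these samples.

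Counts were filtered with edgeR's filterByExpr (55401 rows, 15821 kept), normalized by TMM and tested with edgeR 4.0.16 (quasi-likelihood, R 4.3.3) over all 10 tumors, with thresholds of 1 on the absolute log2 fold change and 0.05 on the Benjamini-Hochberg adjusted p over all genes tested. Standard errors were obtained as the size of the log2 fold change over the root of its F statistic. Log2 CPM used a prior count of 2. Ratios within tumors were tested by two-sided exact permutation. Positions, exon lengths and transcripts came from GENCODE M21 (GRCm38), promoters and the mature microRNA from RefSeq, and coding sequences, without the stop codon, were aligned with Biopython 1.88. Alternatives were DESeq2 1.42.0, RLE normalization, other filters, robust dispersion, a replicate block, a pan-leukocyte score as a covariate, each tumor left out in turn, other ratio summaries and no fold threshold. Lengths of principal transcripts, DESeq2 on filtered genes over 9 tumors, and the comparisons of *Fcer1g* with other macrophage markers were added after seeing the data.

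The members and lists were chosen with earlier results of these data known. Genes named besides the members are the 3 with the highest mean CPM in each pathway list, those called or without overlap between groups, the 3 genes most like each member by Pearson's r, and *Csf1r* and *Ptprc* as references. *Fgr*, *Rac2*, *Ighg3*, *Nos2*, *Cd274*, *Cxcl10*, *Pecam1*, *Cplx2*, macrophage markers and the genes opposite *Fcgr2b* and *Fcgrt* are named in addition. Replicate numbers of KO and NTC tumors do not come from shared animals, and the deviations of same-numbered tumors correlated at 0.17, -0.29, 0.08, 0.63 and 0.21 for numbers 1 to 5, so they were not used as pairs.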

Additional observations from a re-analysis of the deposited data

Results flagged for a closer look

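A tumor was marked where its gap to the nearest other tumor of its group took up more than 0.71 of the group's range. Of 60 groups of 5 values looked at, 16 were marked. Chance marks about 1 in 20 only for independent values with a normal distribution. Many of these groups move together over the same tumors, so the number of marks cannot be set against that share. NTC replicate 1 stood above the other NTC tumors for *Fcgr2b* (219 CPM, others up to 57.2), *Fcgr3* (309 CPM, others up to 84.4), *Fcer1g* (225 CPM, others up to 76.6) and *Fcgrt* (99.5 CPM, others up to 39.2), and for the 6 members summed (1165 CPM, others up to 423). It also stood apart in the summed CPM of macrophage markers (6547), monocyte markers (932), neutrophil markers (148, others up to 15.4), IgG heavy chain genes (9.16), keratinocyte markers (1.48) and melanoma markers (11685, others at least 19769). All these CPM values depend on its TMM factor of 0.63. The log2 ratio of *Fcer1g* to the activating receptors per kilobase was -0.53 in that tumor and -0.91 to -0.87 in the other NTC tumors.

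In NTC replicate 4 the log2 ratio of *Fcgr1* to *Fcgr2b* was -2.18, with the others at -0.69 or above. IgG heavy chain genes summed to 32.1 CPM in KO replicate 2 and to at most 6.03 CPM in the other KO tumors. Skeletal muscle markers summed to 172 CPM in KO replicate 4 (others up to 32.2) and keratinocyte markers to 17.7 CPM in KO replicate 3 (others up to 5.01).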

How the results depend on the processing

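Over all settings, 110 of 114 alternative fold changes of the members were above 0. The 4 below 0 came with the pan-leukocyte score as a covariate: -0.14 for *Fcgr1*, -0.13 for *Fcgr2b*, -0.25 for *Fcgr4* and -0.31 for *Fcer1g* (adjusted p = 0.749, 0.866, 0.595 and 0.245, edgeR). The score is built from genes that follow the members, and the cause was not tested. With each tumor left out, the fold changes ran from 0.32 to 1.44 for *Fcgr1*, 0.18 to 1.30 for *Fcgr2b*, 0.54 to 1.83 for *Fcgr3*, 0.42 to 1.12 for *Fcgr4*, 0.19 to 1.28 for *Fcer1g* and 0.33 to 1.10 for *Fcgrt*, the highest always without NTC replicate 1, and no member was called by edgeR. Without that tumor, DESeq2 called 2 members: *Fcgr2b* at 1.33 and *Fcgr3* at 1.87 without a filter, and at 1.33 and 1.88 with it. The count of genes called, 3 over 10 tumors, was 96 by DESeq2, 6 with at least 10 counts in every tumor, 5 with robust dispersion, 5 without a fold threshold, 16 with the leukocyte score, 754 and 636 by DESeq2 over 9 tumors without and with the filter, and 1 to 17 with a tumor left out. With the replicate block it was 1, and no member call changed. The log2 ratio of *Fcgr1* to *Fcgr2b* was -0.13 by group medians and -0.088 to 0.42 with a tumor left out. That of *Fcgr3* was -0.050 by medians and 0.26 to 0.56 with a tumor left out. That of *Fcgr4* was -0.043 by medians and -0.23 to 0.25 with a tumor left out (-0.10 without NTC replicate 1, -0.19 without NTC replicate 4). The log2 ratio of *Fcer1g* to *Csf1r* was -0.66 to -0.57 with a tumor left out. With another of the 9 macrophage markers as the reference it was -0.75 to -0.23, and the exact permutation p was under 0.05 for 5 of 9, was not for *Cd68*, *Mrc1*, *C1qa* and *Aif1*, and reached 0.460. With *Ptprc* it was -0.29 (exact permutation p = 0.0714). Nearly all genes lie below 0 on these scales. Each member had at least 224 reads in every tumor.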
